A study of Mus musculus with 5 samples.

Results

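The messenger RNAs described here encode splicing factors beyond the Sm core: proteins specific to single spliceosomal small nuclear ribonucleoproteins (snRNPs), the SF3A and SF3B complexes, U2AF, the Prpf proteins and the SR proteins. The genes were chosen by symbol, from probe sets annotated with a single gene, and each gene was read at its brightest probe set. That gave 43 genes of 19937 measured in the series, represented by 51 probe sets.

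The arrays measured RNA released from anti-FLAG precipitates of NSC-34, a mouse hybrid line of neuroblastoma and spinal cord motor neurons. The FLAG-SMN IP group holds 3 arrays from cells with a construct for 3XFLAG-tagged full-length SMN, the survival of motor neuron protein. The control IP group holds 2 arrays from NSC-34 cells that lack any FLAG construct, and so measures RNA that the beads keep without a tagged protein. Cells of both groups were differentiated in 1% serum (the labels give 3 days in one place and 48 hours before the drug in another), were then kept in doxycycline (3 µg/ml) for 3 days, and ultraviolet crosslinking was done at 400 mJ/cm2. The question behind the comparison is which RNAs travel with SMN in its particles. The labels do not say whether arrays of a group came from separate cultures, and a p-value here reflects only how these arrays vary, which may be technical. RNA of the whole lysate was not analysed here, so an RNA's level in the cells and its share in the precipitate cannot be told apart.

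A spliceosome is built on each intron from snRNPs, each consisting of a small nuclear RNA, a ring of Sm or LSm proteins and a set of proteins of its own. SMN is known for loading the Sm ring onto the small nuclear RNAs, and the proteins encoded by the genes described here join afterwards or act at other steps. U1 marks the start of an intron, U2 with U2AF its branch point and end, and the U4/U6.U5 tri-snRNP brings the catalytic centre, while the U11/U12 snRNP serves a minor class of introns. SR proteins bind exons and recruit these parts. The arrays read the messenger RNAs of these proteins, not the proteins or the snRNPs themselves.

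Smn1, the gene of the precipitated protein, had a mean log2 signal of 9.62 ± 0.24 (SD, n = 3) in FLAG-SMN IP and 7.87 ± 0.33 (SD, n = 2) in control IP, a difference of 1.74 (limma adjusted p = 0.0877). Only the FLAG-SMN IP cells carry the SMN construct, and whether its RNA adds to this signal was not tested. All values below are log2 signals or log2 differences (FLAG-SMN IP minus control IP) of deposited RMA values, and a difference of 1 is a doubling. FLAG-SMN IP replicate 1 stood apart: over all probe sets it correlated with replicates 2 and 3 at r = 0.964 and 0.968, against 0.989 between those replicates, which describes the arrays and carries no test. Markers were checked on the same arrays. Of 10 motor neuron markers, 6 lay above the median of the presumed control probe sets on every array. Slc5a7 and Mnx1 did so on 0 of 5 arrays, and Chat and Lhx3 on 4 of 5. The 5 noradrenergic neuroblastoma markers measured did so on every array. Their summed level (log2) was 10.52 to 10.80 in FLAG-SMN IP and 10.73 to 10.97 in control IP, and their differences were -1.94 for Th, -2.23 for Dbh, -0.19 for Phox2a, -0.016 for Hand2 and 0.50 for Gata3. The summed level of the motor neuron markers was 11.74, 10.74 and 10.96 in FLAG-SMN IP and 11.15 and 10.87 in control IP, highest in FLAG-SMN IP replicate 1. Most of that sum is Prph, at 11.52, 10.47 and 10.69 against 10.86 and 10.37. Differences of the 10 were positive at 5 and negative at 5, from -0.99 for Nefl and -0.72 for Isl1 to 0.38 for Mnx1. Of 4 glial markers only Mbp lay above the presumed control median on every array, and of 4 fibroblast markers all but Dcn. The part of these markers in the results below was not tested.

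All 43 splicing factor genes lay above the presumed control median on all 5 arrays, which 62.6% of all genes did. At the level of single genes, 0 of the 43 passed the threshold of 0.05 in limma after Benjamini-Hochberg adjustment over all probe sets, where the background over all genes was 0.00502% higher and 0.0251% lower. On an unadjusted p below 0.05, 3 genes were higher in FLAG-SMN IP (Snrpa1, Snrnp70 and Snrnp35) and 4 lower (Sf3a2, Prpf8, Sf3b3 and Sf3b6). Those are 6.98% and 9.3% of the genes, beside 3.25% and 7.21% of all genes, or 5.3% and 11.5% of genes brighter than the median probe set. The groups did not overlap at 6 genes in the higher direction and 8 in the lower, 14% and 18.6%, where the background was 11% and 14.8% of all genes and 13.1% and 20.3% of the brighter ones. The shares therefore lie near the background, and the median difference was -0.052 beside 0.0019 over all genes.

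**Figure D1:**
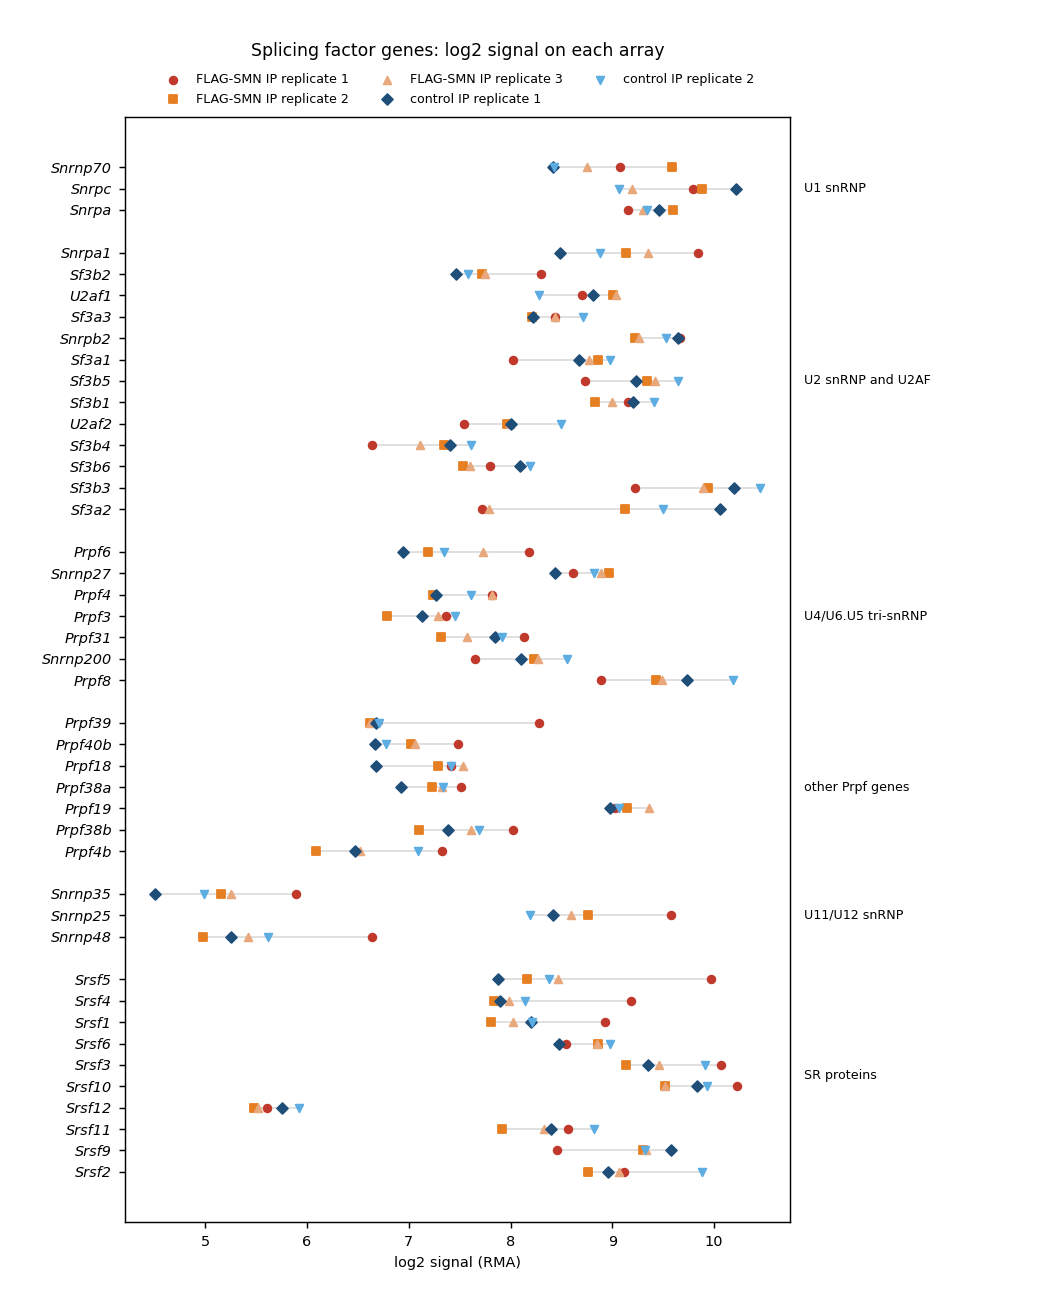
The log2 signal of each of the 43 genes (rows, grouped by role) on each of the 5 arrays (symbols), with a grey line from the lowest to the highest array. In most rows the 3 FLAG-SMN IP arrays and the 2 control IP arrays interleave, and in 29 of 43 rows the groups overlap.

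The precision of these differences can be read from their 95% intervals, which had a median half-width of 0.63 and ran from 0.41 to 1.24. For 27 of the 43 genes (62.8%) the interval lay wholly within 1 log2 unit of 0, so a change of 2-fold or more in either direction lay outside it. For all genes that share was 76.5%. The other 16 genes have intervals that reach a 2-fold change, so for them a change of that size was not excluded. All 43 genes rest on the same small number of arrays, which limits what can be said.

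Of the U1 snRNP genes, 1 of 3 had a positive difference beyond the unadjusted threshold, as 3.25% of all genes did. Snrnp70 encodes the U1 protein with an arginine-rich tail that SR proteins contact. Its log2 signal was 9.08, 9.58 and 8.76 in FLAG-SMN IP and 8.41 and 8.42 in control IP. Every FLAG-SMN array lay above both control arrays, which were nearly equal, while the FLAG-SMN arrays spread by more. The difference was 0.72 (SE 0.27, 95% interval 0.088 to 1.35; unadjusted p = 0.031, limma adjusted p = 0.41). Leaving out FLAG-SMN IP replicate 2, the highest array, gave 0.50.

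Both other U1 genes had differences near 0. Snrpa, whose product holds a stem loop of U1 RNA, had 9.15, 9.59 and 9.30 against 9.46 and 9.34, a difference of -0.052 (95% interval -0.53 to 0.43). Snrpc, whose product steadies the pairing of U1 with the start of the intron, had 9.79, 9.88 and 9.19 against 10.21 and 9.07. Its control arrays bracketed all 3 FLAG-SMN arrays, and its difference of -0.018 turned to 0.55 without control IP replicate 1 and to -0.59 without control IP replicate 2. Its sign also flipped with cyclic loess scaling and with centring on the brighter probe sets.

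The U2 snRNP and U2AF genes had negative differences in 10 of 13 cases, with a median of -0.28; over all genes 50.4% were positive and 49.6% negative. Lower at an unadjusted p under 0.05 were 3 genes (23.1%), beside 7.21% of all genes and 11.5% of the brighter ones. Higher was 1 (7.69%), beside 3.25% and 5.3%. The groups did not overlap at 6 genes in the lower direction (46.2%), beside 14.8% of all genes and 20.3% of the brighter ones. In the higher direction there were 2 (15.4%), beside 11% and 13.1%. Sf3b4 counts among the lower genes at its brightest probe set only, and its other probe set gave 0.16 with overlapping groups. The median stayed negative with each array left out, from -0.43 without control IP replicate 1 to -0.17 without control IP replicate 2. These differences share the same 5 arrays and are not independent of each other.

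Sf3a2 had the largest difference in size of the 43 genes. It encodes the zinc finger subunit of SF3A, the complex that joins the U2 snRNP before it binds the branch point. Its log2 signal was 7.71, 9.13 and 7.79 in FLAG-SMN IP and 10.05 and 9.50 in control IP. All FLAG-SMN arrays lay below both control arrays, but replicate 2 lay closer to control IP replicate 2 than to its own group. The means were 8.21 ± 0.79 (SD, n = 3) and 9.78 ± 0.39 (SD, n = 2), a difference of -1.57 (SE 0.45, 95% interval -2.64 to -0.50; 2.96-fold lower; unadjusted p = 0.0106, limma adjusted p = 0.283). It was the only gene of the 43 beyond a 2-fold difference. With single arrays left out it ranged from -2.03 to -1.29.

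The other subunits of SF3A did not follow it at that size. Sf3a1 had a difference of -0.27 (95% interval -0.97 to 0.42), and Sf3a3 had -0.10 (95% interval -0.62 to 0.41). Sf3a1 was at 8.02, 8.86 and 8.77 against 8.67 and 8.98, and Sf3a3 at 8.43, 8.21 and 8.44 against 8.22 and 8.71. The groups overlapped at both genes. Whether Sf3a2 differed from them in its response was not tested.

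Among the 6 genes chosen by symbol for SF3B, the complex that clamps the branch point, 5 had negative differences at their brightest probe sets. For Sf3b4 the probe set among genes of its own chromosome gave 0.16 instead, with overlapping groups. Sf3b3, a large scaffold subunit, had 9.22, 9.93 and 9.89 against 10.19 and 10.45, a difference of -0.64 (unadjusted p = 0.0495, limma adjusted p = 0.477). Without FLAG-SMN IP replicate 1, the lowest array, it was -0.41 (unadjusted p = 0.0824). Sf3b6, the small subunit that sits at the branch point adenosine, had 7.80, 7.54 and 7.60 against 8.09 and 8.19. Its arrays were tight within each group and the groups did not overlap, with a difference of -0.49 (SE 0.18; unadjusted p = 0.0309, limma adjusted p = 0.41). Sf3b1, the subunit that grips the branch helix, had 9.15, 8.83 and 9.00 against 9.20 and 9.41, a difference of -0.31 (unadjusted p = 0.147). Sf3b4 and Sf3b5 gave -0.47 and -0.28, and Sf3b2, which binds Sf3b4 protein, was the exception at 0.40 (unadjusted p = 0.13).

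Snrpa1 had the largest positive difference of the 43 genes at its brightest probe set. It encodes the leucine-rich repeat protein of the U2 snRNP that pairs with the product of Snrpb2. Its log2 signal was 9.84, 9.13 and 9.35 in FLAG-SMN IP and 8.49 and 8.88 in control IP. All FLAG-SMN arrays lay above both control arrays. The difference was 0.76 (SE 0.26, 95% interval 0.13 to 1.39; 1.69-fold; unadjusted p = 0.0245, limma adjusted p = 0.374), and it was 0.56 without FLAG-SMN IP replicate 1 and also without control IP replicate 1. Its protein partner's gene Snrpb2 had 9.67, 9.22 and 9.26 against 9.65 and 9.53, with overlapping groups and a difference of -0.21 (95% interval -0.70 to 0.29).

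The U2AF genes, whose products read the end of the intron as a pair, had differences of opposite sign. U2af2, which binds the pyrimidine tract, was at 7.55, 7.97 and 7.99 against 8.01 and 8.50, a difference of -0.42 (unadjusted p = 0.129). U2af1, which reads the final dinucleotide, was at 8.70, 9.00 and 9.04 against 8.81 and 8.28, a difference of 0.37 (unadjusted p = 0.158). Both intervals include 0, and without control IP replicate 2 the differences were -0.17 and 0.10. The difference between these genes was not tested.

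**Figure D2:**
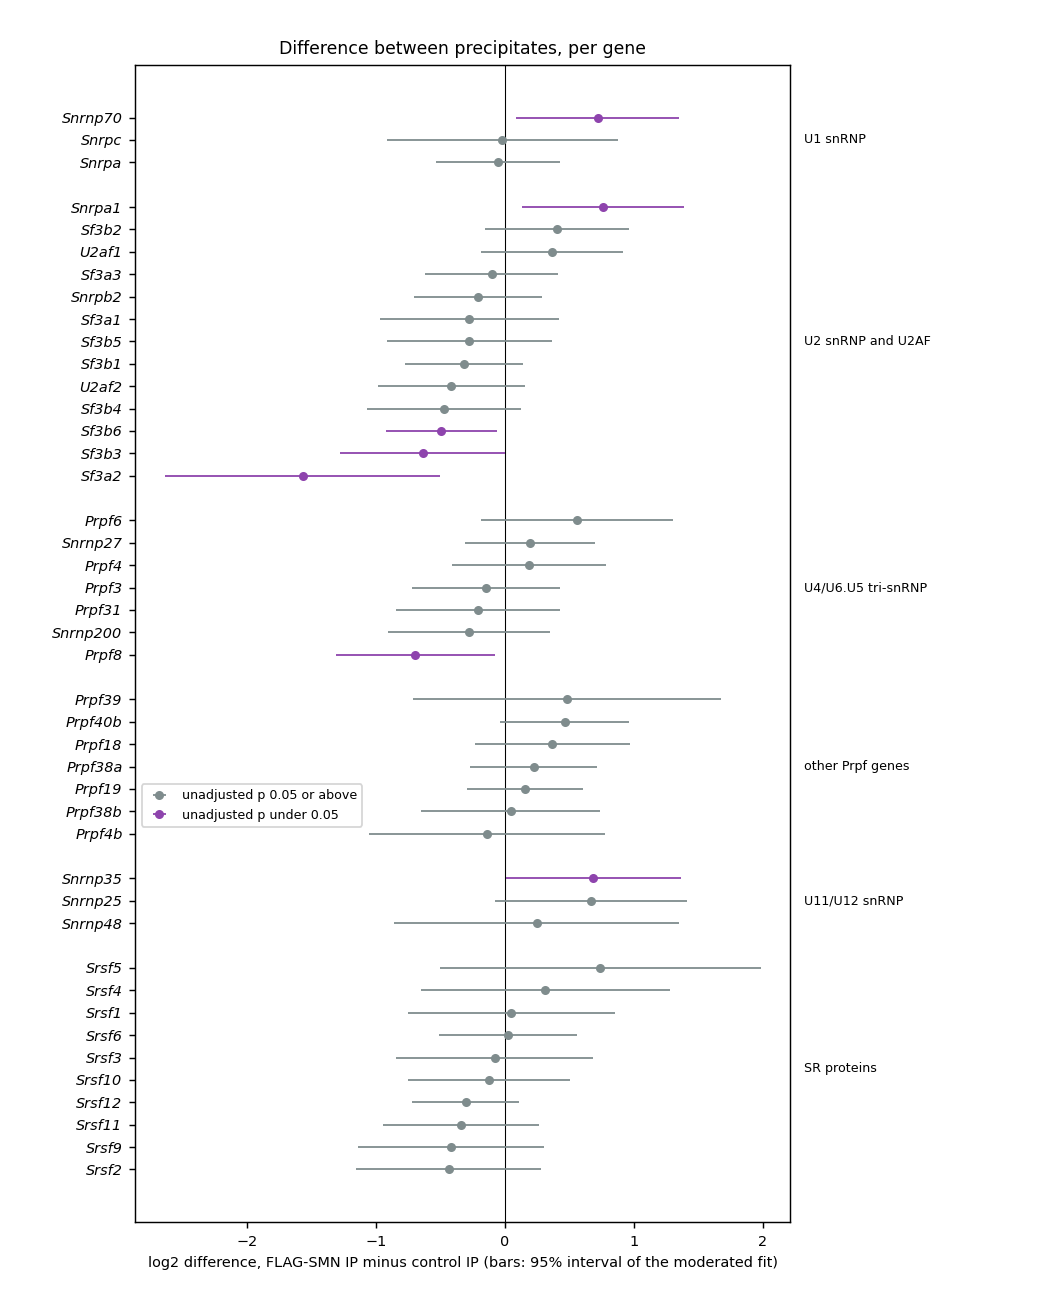
The log2 difference of each gene (point, FLAG-SMN IP minus control IP) with its 95% interval from the moderated fit (bar), grouped by role; purple marks an unadjusted p under 0.05. Sf3a2 lies farthest from 0 at -1.57, and the intervals of 36 of 43 genes include 0.

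The tri-snRNP genes were mixed, with 3 positive and 4 negative differences among 7 and a median of -0.14. Prpf8, whose product is the scaffold around the catalytic RNA, had 8.88, 9.43 and 9.48 in FLAG-SMN IP and 9.74 and 10.18 in control IP. All FLAG-SMN arrays lay below both control arrays, with replicate 1 the lowest. The difference was -0.69 (SE 0.26, 95% interval -1.31 to -0.078; 1.62-fold lower; unadjusted p = 0.0324, limma adjusted p = 0.413), and -0.47 without control IP replicate 2.

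Snrnp200, the helicase that unwinds U4 from U6 beside Prpf8 protein, had 7.65, 8.23 and 8.27 against 8.10 and 8.56. The groups overlapped and the difference was -0.28 (unadjusted p = 0.326). Prpf6, which bridges U5 and U4/U6, had 8.18, 7.19 and 7.73 against 6.94 and 7.34, a difference of 0.56 (unadjusted p = 0.119) that was 0.32 without FLAG-SMN IP replicate 1. The remaining U4/U6 proteins' genes, Prpf3 (-0.14), Prpf4 (0.19) and Prpf31 (-0.21), and the tri-snRNP gene Snrnp27 (0.20) all had intervals that include 0.

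The 7 other Prpf genes had 6 positive differences and a median of 0.22. Beyond an unadjusted p of 0.05 were 0, beside 3.25% of all genes higher and 7.21% lower. Prpf40b, related to a yeast U1 protein, was at 7.48, 7.02 and 7.06 against 6.67 and 6.77, a difference of 0.47 (unadjusted p = 0.0641). It was the only gene of these 7 whose groups did not overlap (14.3%, higher), beside 11% of all genes and 13.1% of the brighter ones. In the lower direction there were 0, beside 14.8% and 20.3%. Prpf18, which acts in the joining of exons, was at 7.41, 7.29 and 7.54 against 6.68 and 7.41, a difference of 0.37 that was 0.0027 without control IP replicate 1. Prpf19, the ubiquitin ligase that names its complex, was at 9.03, 9.14 and 9.36 against 8.98 and 9.07, a difference of 0.16 (unadjusted p = 0.436). Prpf38a (0.22), Prpf38b (0.044) and the kinase gene Prpf4b (-0.14) had overlapping groups. Prpf39 had a difference of 0.48 that came from FLAG-SMN IP replicate 1 alone, at 8.28 beside 6.62, 6.62, 6.68 and 6.71 on the other arrays; without that array it was -0.072.

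All 3 U11/U12 genes had positive differences, with a median of 0.67. Snrnp35, the minor spliceosome's relative of Snrnp70, had 5.89, 5.15 and 5.25 in FLAG-SMN IP and 4.51 and 4.99 in control IP. The groups did not overlap, but the arrays lay close to the presumed control medians of 4.30 to 4.55, and control IP replicate 1 exceeded its own median of 4.49 only slightly. The difference was 0.68 (SE 0.28; unadjusted p = 0.0482, limma adjusted p = 0.472). It was 0.46 without FLAG-SMN IP replicate 1 (unadjusted p = 0.085) and 0.45 without control IP replicate 1 (unadjusted p = 0.264). Snrnp25 had 9.57, 8.76 and 8.59 against 8.41 and 8.20, a difference of 0.67 (unadjusted p = 0.0704) that was 0.37 without FLAG-SMN IP replicate 1. Snrnp48, which recognises the start of minor introns, had 6.64, 4.98 and 5.42 against 5.25 and 5.61. Its difference of 0.25 turned to -0.23 without FLAG-SMN IP replicate 1, the highest of its 5 arrays. That array was the highest of its group at all 3 genes.

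Of the 10 SR protein genes, 0 reached an unadjusted p under 0.05, beside 3.25% of all genes higher and 7.21% lower. Their differences were positive at 4 and negative at 6, with a median of -0.10. Srsf2, known for binding exonic enhancers, was at 9.12, 8.76 and 9.07 against 8.95 and 9.88. Its difference of -0.44 (unadjusted p = 0.19) rested on control IP replicate 2, and without it the difference was 0.029. Srsf12 was at 5.61, 5.48 and 5.51 against 5.76 and 5.92, a difference of -0.30 (unadjusted p = 0.125). It was the only SR gene whose groups did not overlap (10%, lower), beside 14.8% of all genes and 20.3% of the brighter ones. In the higher direction there were 0, beside 11% and 13.1%.

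The other SR genes had overlapping groups. Srsf9 and Srsf11 gave -0.41 and -0.34, Srsf10 and Srsf3 -0.12 and -0.079, and Srsf6 and Srsf1 0.026 and 0.048. Srsf1, which also acts in export and translation, was at 8.92, 7.80 and 8.03 against 8.20 and 8.21, and without FLAG-SMN IP replicate 1 its difference was -0.29. Srsf4 (0.31) and Srsf5 (0.74, unadjusted p = 0.2) also moved down, to -0.11 and 0.19, without that array. Over the 10 genes FLAG-SMN IP replicate 1 lay a median 0.58 above the mean of replicates 2 and 3, and without it the median difference of the SR genes was -0.31.

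**Figure D3:**
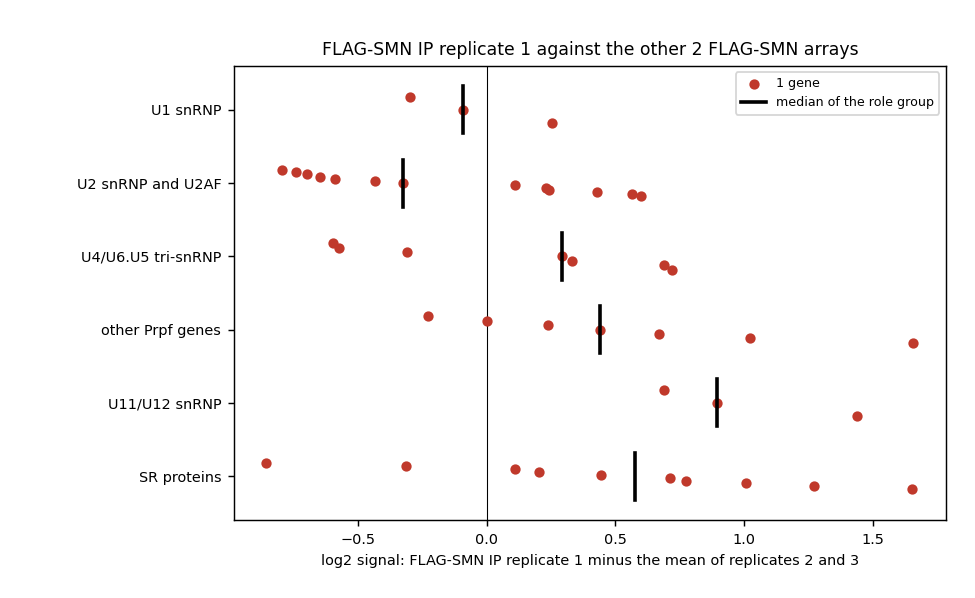
The log2 signal of FLAG-SMN IP replicate 1 minus the mean of FLAG-SMN IP replicates 2 and 3 for each gene (points), by role, with the median of each role group (black bars). The medians run from -0.32 for U2 snRNP and U2AF genes to 0.90 for U11/U12 genes, and SR genes lie at 0.58.

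That array was above both its replicates at 25 of the 43 genes (58.1%) and below both at 14 (32.6%), beside 41.5% and 36.8% of all genes. Across the 43 genes it correlated at r = 0.80 and 0.85 with replicates 2 and 3, which correlated with each other at 0.96 and with the control arrays at 0.92 to 0.95. Correlations across genes are descriptions of the arrays and carry no test. The control arrays also differed on these genes, with replicate 1 a median 0.30 below replicate 2 (difference -0.30), beside 0.038 over all genes. Without control IP replicate 1, an unadjusted p below 0.05 was reached by 0 genes in the higher direction and 2 in the lower, beside 2.36% and 7.2% of all genes. Without control IP replicate 2 the counts were 3 and 1, beside 3.18% and 3.92% of all genes, and without FLAG-SMN IP replicate 1 they were 2 and 2, beside 4.4% and 8.09%. The difference changed sign in at least 1 of the 5 left-out fits at 13 of the 43 genes, and 0 genes kept an unadjusted p under 0.05 in all 5.

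The reading of 6 genes depends on the probe set. Probe set IDs on this array follow the genome: at 99.7% of 18905 genes with a single probe set, the genes named on the 10 neighbouring IDs of each side were mostly of the gene's own chromosome (RefSeq, assembly GRCm38). All 37 splicing factor genes with 1 probe set followed this order. Of the 6 with several, the brightest lay among genes of another chromosome at 5, namely Sf3b4, Snrpc, Srsf3, Srsf5 and Srsf10. Such a probe set may read a processed copy of the gene as well as the gene itself, which was not tested.

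Srsf5 moved past the unadjusted threshold with this choice. The probe set among genes of its own chromosome had 9.80, 8.32 and 8.23 in FLAG-SMN IP and 7.20 and 7.80 in control IP. All FLAG-SMN arrays lay above both controls there, with a difference of 1.28 (unadjusted p = 0.0355, limma adjusted p = 0.426) in place of 0.74. That probe set was singled out after its values were seen. At Srsf3 the probe sets gave -0.079, 0.74 (unadjusted p = 0.042, limma adjusted p = 0.452) and -0.46, and the probe set among genes of its own chromosome gave the last of these. Sf3b4 gave -0.47 at its brightest probe set and 0.16 at the other. Snrpc (-0.018, 0.058 and 0.18), Srsf10 (-0.12 and -0.017) and U2af1 (0.37 and 0.086) stayed within overlapping groups at each probe set. With the probe set among genes of the own chromosome used throughout, 4 genes in each direction reached an unadjusted p below 0.05 (over all genes 3.27% higher and 7.23% lower), and the median difference was 0.026.

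**Figure D4:**
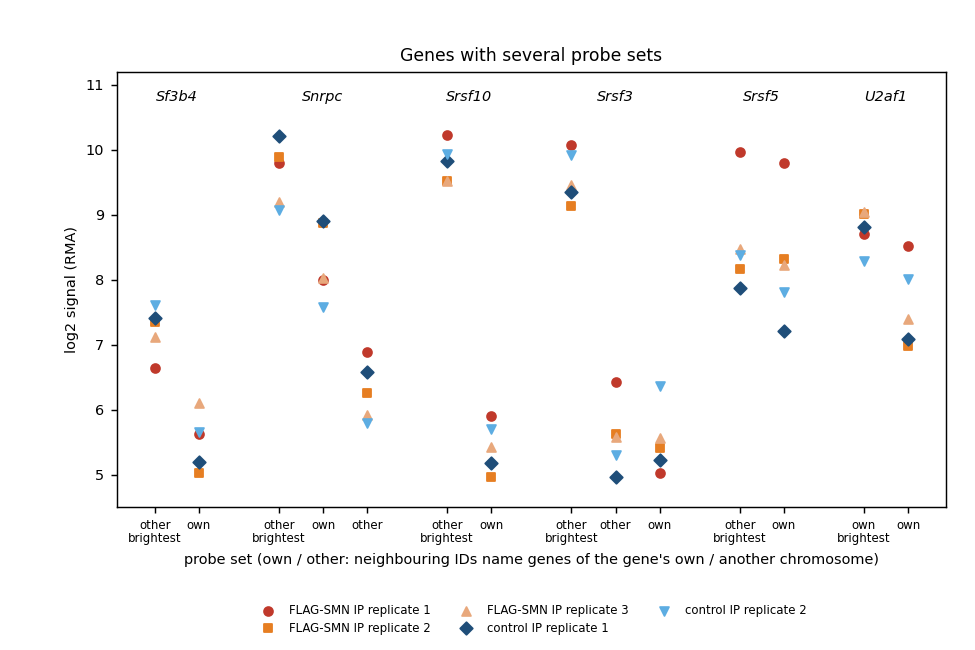
The log2 signal on each array (symbols) at every probe set of the 6 genes with several, ordered from brightest to dimmest within a gene and marked by whether neighbouring IDs name genes of the gene's own or of another chromosome. At Srsf5 the FLAG-SMN IP and control IP arrays overlap at the brightest probe set and stand apart at the other, with FLAG-SMN IP replicate 1 the highest at both.

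The rest of the splicing pathway was read from lists of partner genes. Together they held 78 measured genes, with a median difference of -0.015; an unadjusted p below 0.05 was reached by 3 in the higher direction (3.85%) and 1 in the lower (1.28%), and 0 passed the adjusted threshold in limma. The background was 3.25% and 7.21% of all genes, and 5.3% and 11.5% of the brighter ones. Smndc1, a spliceosome protein related to SMN by its Tudor domain, was higher, at 9.27, 8.79 and 8.93 against 8.08 and 8.35, a difference of 0.78 (SE 0.22; unadjusted p = 0.0092, limma adjusted p = 0.268). All its FLAG-SMN arrays lay above both controls, although the probe set among genes of its own chromosome gave 0.42 (unadjusted p = 0.238). Rbm17, the next of the 17 early and U2-associated genes, gave 0.47 (unadjusted p = 0.141), and the list's median was -0.028.

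Genes of the Prp19 complex and the catalytic steps had positive differences in 16 of 21 cases, with a median of 0.15. Their groups did not overlap at 6 genes in the higher direction (28.6%), beside 11% of all genes and 13.1% of the brighter ones. In the lower direction there was 1 (4.76%), beside 14.8% and 20.3%. Isy1 was at 8.24, 7.59 and 7.65 against 7.10 and 7.28, a difference of 0.64 (unadjusted p = 0.0378), and Plrg1 at 8.74, 8.80 and 8.94 against 8.19 and 8.49, a difference of 0.49 (unadjusted p = 0.037). Both had limma adjusted p of 0.435 and 0.431. The list's median lay between 0.068 and 0.19 with single arrays left out.

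Exon junction complex and SR-related genes leaned the other way, with 13 of 16 negative and a median of -0.16. Their groups did not overlap at 4 genes in the lower direction (25%), beside 14.8% of all genes and 20.3% of the brighter ones. In the higher direction there were 0, beside 11% and 13.1%. Srrm2, a very large SR-related protein of nuclear speckles, was at 10.10, 9.95 and 10.23 in FLAG-SMN IP and 10.76 and 10.95 in control IP. Its groups stood well apart, with a difference of -0.76 (SE 0.19; unadjusted p = 0.0048, limma adjusted p = 0.225), and the difference lay between -0.86 and -0.67 under every alternative run. Tra2b, a splicing activator, gave -0.43 (unadjusted p = 0.0868), but 0.44 at the probe set among genes of its own chromosome.

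The remaining lists held 0 genes beyond an unadjusted p of 0.05 in either direction, beside 3.25% of all genes higher and 7.21% lower. Of 12 tri-snRNP partners (median -0.083), Snu13, which binds U4 RNA, gave -0.43 (unadjusted p = 0.102) and Eftud2, the GTPase of the U5 snRNP, -0.35 (unadjusted p = 0.158). Of 4 minor spliceosome partners (median -0.20), Zcrb1 gave -0.52 (unadjusted p = 0.0502) and Rnpc3 -0.57 (unadjusted p = 0.107; -0.094 without control IP replicate 2 and -1.05 without control IP replicate 1), while Pdcd7 and Zmat5 gave 0.41 and 0.12, so these partners had both signs. Of 8 SR protein kinase and import genes (median 0.11), Clk3 gave 0.43 (unadjusted p = 0.0742) and Srpk3 0.27 (unadjusted p = 0.172). Srpk3 was at 4.98, 4.87 and 4.84 against 4.72 and 4.53, and exceeded the presumed control median on only 4 of 5 arrays. Rnpc3 also lay close to that median on FLAG-SMN IP replicate 1, at 4.64 against 4.45.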

How the data were processed

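The authors deposited log2 signals, 1 array per sample, made with RMA per the submitters' processing notes (version not given in the sources used here). Per the labels' protocols, 300 to 500 ng of precipitated RNA entered labelling. RMA equalises the distributions of the arrays, which hides any overall difference in recovered RNA. Groups came from the titles.

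Of 34760 probe sets, 6573 with IDs below the lowest annotated ID were treated as presumed controls and dropped, and 28187 were tested: 21640 with 1 gene symbol, 1321 with several, 5226 with none. All 43 symbols matched RefSeq by gene ID. Groups were compared with limma 3.58.1 under R 4.3.3 (lmFit, eBayes, 2-sided, no block; 3 residual and 3.8 prior degrees of freedom), adjusting p by Benjamini-Hochberg across the 28187 probe sets. In simulated data for this comparison (20 draws, 200 of 28187 probe sets shifted), shifts of 1, 2 and 3 log2 units were recovered after adjustment in 5.67%, 60.6% and 82.2% of cases. The simulated noise was normal, independent between probe sets and of equal spread on every array. In the real data FLAG-SMN IP replicate 1 stood apart, so these rates may not hold there. Text names genes with an unadjusted p under 0.05 or a difference of at least 1, and in each role group the 2 of smallest p and the brightest; in each partner list the 2 of smallest p; genes whose probe sets differ in sign with one at p under 0.05; and Smn1. Genes and lists were chosen with earlier results of these data known. Alternatives are given in the closing part. Figures used matplotlib 3.10.9 in Python 3.11.15.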

Additional observations from a re-analysis of the deposited data

How the results depend on the processing

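Of the 43 genes, 0 passed the adjusted threshold in limma under every alternative run. The number higher at an unadjusted p under 0.05 was 3; it was 1 with array weights and 0 to 3 with single arrays left out, and 2 to 4 under the other alternatives. The number lower was 4; it was 2 with centring on the brighter probe sets, 2 with only the brighter probe sets, 1 with trend and robust moderation, 1 to 3 with single arrays left out, and 3 or 4 otherwise. The median difference of -0.052 ran from -0.15 to 0.10 with single arrays left out. Over all probe sets, 9 passed the adjusted threshold; 0 did with cyclic loess, 41 with centring on the brighter probe sets, 0 with all probe sets of the table, 86 with array weights, 0 with the replicate block, and 0 to 350 with single arrays left out (350 without FLAG-SMN IP replicate 1). The cause was not tested. Same-numbered arrays deviated together at r = 0.13 and -0.20, so the numbers were not taken as pairs; the replicate block leaves FLAG-SMN IP replicate 3 without a partner and gave 2 genes higher, 3 lower and a median of -0.026. Loess scaling and centring moved the median of all genes by -0.0051 and 0.034. The choice of probe set by neighbouring IDs was added after the data were seen. No named splicing factor gene with an unadjusted p under 0.05 changed sign under any alternative run.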

Other observations

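FLAG-SMN IP replicate 1 stood at least 1 log2 unit above the mean of replicates 2 and 3 at 6 of the 43 splicing factor genes (14%) and 10 of the 78 partner genes (12.8%), beside 2.57% of all genes; it stood at least 1 unit below at 0 of either, beside 2.86% of all genes. Of the 10 motor neuron markers 2 (20%) stood at least 1 unit above, Nefl at 7.59 beside 5.75 and 6.40 and Nefm at 6.13 beside 4.71 and 4.96. The control IP arrays were at 7.22 and 7.91 for Nefl, on either side of FLAG-SMN IP replicate 1. For Nefm they were at 5.44 and 5.81, below it. The excess of that array was looked for after the values were seen, the genes share 1 array, and no test was made. Among the 43 genes those at least 1 unit above were Prpf39, Srsf5, Snrnp48, Srsf4, Prpf4b and Srsf1, the first by 1.66 and the last by 1.01. The partner genes included Luc7l3, related to a yeast U1 protein, at 9.22 beside 7.05 and 7.36; Zmat2 at 9.62 beside 7.54 and 7.98; Pnn, a nuclear speckle protein gene, at 9.32 beside 7.29 and 7.89; and the SR protein kinase gene Clk1 at 8.75 beside 6.97 and 7.54. The control IP arrays at these 4 partner genes lay between 7.16 and 8.05, below FLAG-SMN IP replicate 1 at each.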
